A study of Mus musculus with 67 samples.

Results

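The genes followed here are 10 cytokine genes of T cells: Ifng, Il2, Tnf, Il10, Il17a, Il4, Il21, Csf2, Lta and Il16. They were taken by name, whatever their level, and were measured in CD4+ T cells sorted from the hypothalamus and from the rest of the mouse brain. All 10 were found among the 24530 gene features of the main experiment and among the 24421 gene symbols of an earlier pilot experiment. Levels are given as CPM, the counts of a gene scaled to the total of its library, and a gene was taken as detected in a library with more than 3 counts.

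The study asked how a calorie-rich diet acts on T cells that reside in the hypothalamus, the brain region that governs feeding and energy use. The main experiment held 59 libraries, each from sorted cells pooled over several mice of a Foxp3GFP reporter line, in which Foxp3-expressing cells are green. Activated conventional T cells (activated Tconv; live CD4+ CD25- Foxp3GFP- CD44 high CD62L low) gave 16 libraries from the hypothalamus and 13 from the rest of the brain. Regulatory T cells (Tregs; Foxp3GFP+) gave 16 and 14. Mice were Balb/c or C57Bl/6J and ate standard diet (SD) or a high-fat, high-sugar (HFHS) diet, which makes 16 groups of 2 to 4 libraries. Balb/c mice were female and C57Bl/6J mice male, so strain and sex cannot be told apart. The time on the diet in the main experiment is not given in the sources used here. The pilot held 8 hypothalamic libraries, 1 per group. Of these, 4 came from pools of 9 female Foxp3GFP Balb/c mice on SD or on the HFHS diet for 16 weeks, sorted into CD4+ CD25- CD44 low and intermediate cells, here called naive T cells, and Foxp3GFP+ Tregs. The other 4 came from pools of 7 female mice, either ob/ob, which lack leptin and become obese, or wild type (WT; Bl6 in the labels), sorted into CD4+ CD25- T cells and CD4+ CD25hi cells.

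Cytokines are secreted proteins by which T cells instruct other cells. Helper T cells are commonly grouped by the cytokine they make: interferon gamma (Ifng) marks type 1 cells, interleukin 4 (Il4) type 2 cells, interleukin 17A (Il17a) type 17 cells, and interleukin 21 (Il21) follicular helper cells. Interleukin 2 (Il2) is the T-cell growth factor, made by activated conventional T cells and consumed by Tregs, in which Foxp3 represses its gene. Tumour necrosis factor (Tnf) and lymphotoxin alpha (Lta) are related inflammatory ligands, Csf2 encodes the myeloid growth factor GM-CSF, interleukin 10 (Il10) dampens immune responses, and interleukin 16 (Il16) is made as a precursor and binds CD4. Several of these genes are switched on after T-cell receptor stimulation through NFAT and AP-1 factors at their promoters.

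The 10 genes lie on 6 chromosomes of the GRCm38 mouse genome, and 3 pairs are neighbours. Il2 (chr3:37120713-37125954) lies beside Il21 (chr3:37222759-37232636). Tnf (chr17:35199367-35202007) lies beside Lta (chr17:35203165-35205578). Il4 (chr11:53612460-53618665) and Csf2 (chr11:54247270-54249899) share a cytokine cluster. The others are Il17a (chr1:20730905-20734496), Il10 (chr1:131019845-131024970), Il16 (chr7:83642819-83746028) and Ifng (chr10:118441046-118445894).

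The promoters of Il2, Il4, Il21 and Csf2 are shown because these 4 genes were detected in most activated Tconv libraries and in at most 2 of the 30 Treg libraries. Each runs 5′ to 3′ on the gene's own strand, from 250 bases before to 50 bases after the start site, as in RefSeq on GRCm38.p6. Capitals mark GGAAA on either strand (TTTCC on the strand shown), the core that NFAT binds, which also contains the GGAA core of ETS factors.
Il2, chr3:37125905-37126204, minus strand: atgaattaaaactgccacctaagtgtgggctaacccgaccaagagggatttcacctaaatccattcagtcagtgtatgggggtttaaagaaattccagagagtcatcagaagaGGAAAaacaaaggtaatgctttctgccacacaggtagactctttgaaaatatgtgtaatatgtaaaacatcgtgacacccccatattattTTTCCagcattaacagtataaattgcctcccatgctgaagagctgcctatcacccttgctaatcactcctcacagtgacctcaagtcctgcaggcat
Il4, chr11:53618616-53618915, minus strand: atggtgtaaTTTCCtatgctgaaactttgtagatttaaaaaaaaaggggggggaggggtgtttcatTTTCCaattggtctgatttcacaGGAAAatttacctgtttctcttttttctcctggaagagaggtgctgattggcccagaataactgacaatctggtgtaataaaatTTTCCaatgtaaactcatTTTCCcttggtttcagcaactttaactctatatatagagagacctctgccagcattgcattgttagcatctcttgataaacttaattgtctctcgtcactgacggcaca
Il21, chr3:37232587-37232886, minus strand: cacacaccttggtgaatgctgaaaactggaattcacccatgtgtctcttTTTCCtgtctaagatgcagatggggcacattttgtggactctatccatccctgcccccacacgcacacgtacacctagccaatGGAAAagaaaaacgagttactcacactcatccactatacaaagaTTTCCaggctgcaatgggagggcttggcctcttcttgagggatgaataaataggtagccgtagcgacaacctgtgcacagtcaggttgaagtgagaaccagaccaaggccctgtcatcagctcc
Csf2, chr11:54249850-54250149, minus strand: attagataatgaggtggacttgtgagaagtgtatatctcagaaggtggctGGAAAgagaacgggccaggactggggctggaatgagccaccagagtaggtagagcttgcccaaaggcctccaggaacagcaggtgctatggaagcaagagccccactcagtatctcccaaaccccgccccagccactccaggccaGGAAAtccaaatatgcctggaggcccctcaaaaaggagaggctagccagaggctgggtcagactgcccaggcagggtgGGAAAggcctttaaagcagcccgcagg

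The motif GGAAA occurred 2 times in the Il2 promoter, 5 times in that of Il4, and 3 times in each of Il21 and Csf2. Of all 32851 mouse promoters of the same length, 61.3% held it at least once, 26.7% at least 2 times, 9.42% at least 3 times and 0.728% at least 5 times. The AP-1 motif TGANTCA was in none of these 4 windows and in 7.81% of all promoters. Among the other members, Tnf and Lta each held 3 copies of GGAAA, Ifng held 1, and Il17a held none but had 1 copy of TGANTCA. The 3 listed Il16 promoters held 3, 1 and 1 copies of GGAAA, and the last of them also held 1 copy of TGANTCA. A second Il4 start held 1 copy of GGAAA.

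Libraries held 1724149 to 38482277 estimated counts on genes. The hypothalamic Treg libraries detected fewest gene features (median 4749), followed by Tregs of the rest of the brain (median 9120.5), hypothalamic activated Tconv (median 9913.5) and activated Tconv of the rest of the brain (median 12368). Foxp3 was 241 to 767 CPM in Tregs of the rest of the brain and 0 to 13.8 CPM in all activated Tconv libraries, and Cd3e was 982 CPM or higher in each library of those 3 populations. Hypothalamic Tregs were less uniform, and in 3 of their libraries some markers went against the label or the depth was low. The library of Balb/c SD pool 32_36 had Foxp3 at 0.0977 CPM and microglia markers summing to 18220 CPM. Its 4 Treg markers, Foxp3, Ikzf2, Il2ra and Ctla4, still summed to 3211 CPM, and its T-cell markers to 3741 CPM. The library of C57Bl/6J SD pool 11_15 had T-cell markers summing to 188 CPM, Treg markers to 35.1 CPM and endothelial markers to 12767 CPM. The library of C57Bl/6J SD pool 43_47 held the lowest count and had Foxp3 at 3.48 CPM, with Treg markers summing to 1783 CPM. Detection counts and fits that call a member in hypothalamic Tregs are therefore also given without these 3. The remaining 13 hypothalamic Treg libraries had T-cell markers summing to 4083 to 8448 CPM. Of these, 1, C57Bl/6J HFHS diet pool 06_10, had Foxp3 at 0.429 CPM and none of the members detected, while its Treg markers summed to 2395 CPM.

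Activated Tconv expressed most of the 10 cytokine genes in every library, and Tregs expressed few. Each activated Tconv library detected 6 to 10 members, and each Treg library 0 to 5. Ifng, Il2, Tnf, Il4, Lta and Il16 were detected in all 29 activated Tconv libraries. In the 30 Treg libraries, Ifng was detected in 15, Il2 in 1, Tnf in 24, Il4 in 1, Lta in 16 and Il16 in 28. Il17a and Il21 were detected in no Treg library. Of the 13 hypothalamic Treg libraries left without the 3 doubted ones, Ifng and Lta were each detected in 6, Tnf and Il16 each in 11, Csf2 in 2, and Il2, Il4 and Il10 each in 1.

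**Figure D1:**
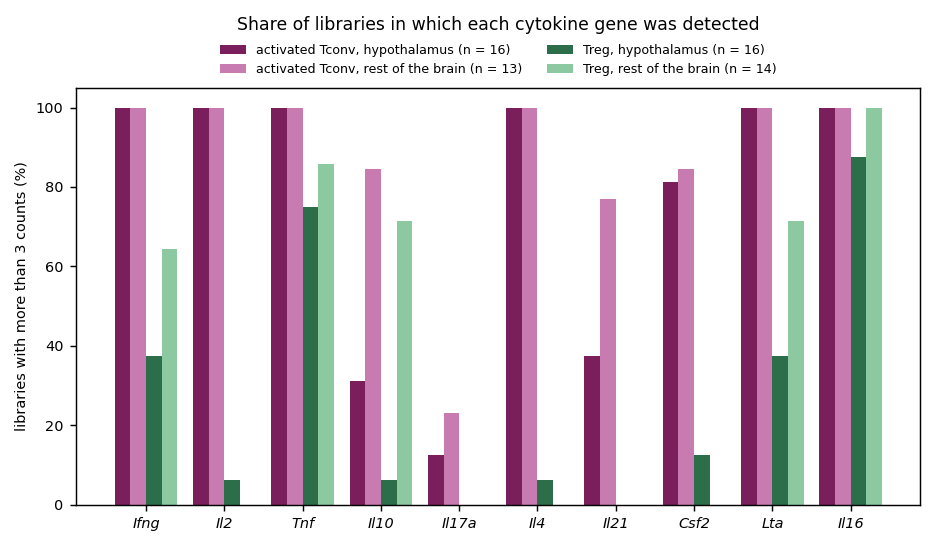
Percent of libraries with more than 3 counts of each cytokine gene, for activated Tconv and Tregs of the hypothalamus and of the rest of the brain. Ifng, Il2, Tnf, Il4, Lta and Il16 reach 100% in both activated Tconv populations, while Il2 and Il4 are detected in 1 of 16 hypothalamic Treg libraries and in none of the 14 of the rest of the brain.

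Levels between genes were compared as TPM, which also divides by transcript length. In activated Tconv of the rest of the brain the median level was highest for Ifng (545 TPM), followed by Il2 (134 TPM), Tnf (99.5 TPM), Il16 (58.1 TPM), Il4 (46.4 TPM) and Lta (37.5 TPM). Csf2 (7.23 TPM), Il10 (5.43 TPM) and Il21 (0.696 TPM) were lower, and Il17a had a median of 0. Hypothalamic activated Tconv had Ifng at 582 TPM and then Tnf (145 TPM), Il2 (91.0 TPM), Il16 (72.3 TPM), Il4 (58.98 TPM) and Lta (39.6 TPM). Ifng stood clear of the other members in the hypothalamus, where its lowest library (283 TPM) lay above the highest Tnf library (265 TPM), except for 1 library with Lta at 305 TPM. Every other pair of neighbours in these 2 orders overlapped in range.

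Il2, the growth factor gene, separated the 2 cell types without overlap. Activated Tconv held 19.3 to 99.7 CPM in the hypothalamus (median 55.8) and 42.8 to 322 CPM in the rest of the brain (median 102). Tregs held 0 to 0.263 CPM in the hypothalamus and 0 to 0.0577 CPM in the rest of the brain. The lowest activated Tconv level would have given 33.3 counts in the shallowest Treg library and 324 in the Treg library of median depth. Summed over libraries, Il2 had 10 counts in hypothalamic Tregs against 17559 in activated Tconv, a 1667-fold lower CPM with a 95% counting interval of 906 to 3477. In the rest of the brain the sums were 1 and 28859 counts, a 26449-fold lower CPM with an interval of 4747 to 1044710. Counting intervals cover counting error only.

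Il4, the type 2 helper cytokine gene, was 4.63 to 44.9 CPM in hypothalamic activated Tconv (median 19.4) and 8.63 to 76.3 CPM in those of the rest of the brain (median 15.4). In Tregs it was 0 in 29 of 30 libraries. The exception was the hypothalamic Balb/c SD pool 42_46, at 33.7 CPM, which lay within the activated Tconv range. Il4 in Tregs of the rest of the brain was at least 2063-fold lower than in activated Tconv, taking 3 counts over the group as the limit that a count of 0 allows. In activated Tconv, 77.7% of Il4 counts in the rest of the brain and 76.9% in the hypothalamus were assigned to a RefSeq name of the non-coding class, while all 509 counts of the Treg library were assigned to the coding name. The share came from the transcript assignment of the deposited counts, which cannot be checked here.

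Of the 6712 genes detected in all 29 activated Tconv libraries, 8 (0.119%) were detected in at most 1 Treg library. Il2 and Il4 were among these 8. The others were Atp8b4, Itga1, Pde3b, the granzyme gene Gzmk and the killer-cell lectin receptor genes Klrd1 and Klrk1.

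Il21 was detected in 6 of 16 hypothalamic and 10 of 13 rest-of-brain activated Tconv libraries and reached 133 CPM in 1 hypothalamic library. Every Treg library had 0 counts, which made Il21 at least 1138-fold lower in hypothalamic Tregs and at least 1254-fold lower in those of the rest of the brain. The first limit rested on 3596 counts, 2568 of them in the activated Tconv of C57Bl/6J HFHS diet pool 06_10, and without that library it was at least 349-fold. Il17a was found in 5 activated Tconv libraries, all from C57Bl/6J mice, with 52.4 CPM in the highest and 0 in all 14 Balb/c libraries. Csf2 was detected in 13 of 16 and 11 of 13 activated Tconv libraries at up to 27.8 CPM. In Tregs Csf2 was seen in 2 hypothalamic C57Bl/6J libraries only, at 28.1 CPM (HFHS diet, pool 72_76) and 45.2 CPM (SD, pool 62_66), both above every activated Tconv library.

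Ifng was the most abundant member in activated Tconv, at 251 to 805 CPM in the hypothalamus (median 474) and 283 to 1011 CPM in the rest of the brain (median 529). Tregs of the rest of the brain held 0 to 173 CPM (median 16.3), which did not overlap with activated Tconv. Hypothalamic Tregs split, with 10 of 16 libraries at or under 0.119 CPM and 6 between 48.8 and 356 CPM. The highest, Balb/c SD pool 06_10, lay inside the activated Tconv range.

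Tnf, Lta and Il16 were shared by both cell types. Tnf was 86.1 to 321 CPM in hypothalamic activated Tconv (median 169) and 0 to 1047 CPM in hypothalamic Tregs (median 122). In the rest of the brain it was 30.1 to 207 CPM (median 126) in activated Tconv and 0 to 342 CPM (median 67.2) in Tregs. The Treg range enclosed the activated Tconv range in both tissues. Lta was 5.92 to 299 CPM (median 39.4) in hypothalamic activated Tconv, and 0 to 726 CPM (median 0.0422) in hypothalamic Tregs, 6 of which detected it at 16.5 CPM or more. In the rest of the brain it was 24.5 to 80.2 CPM (median 42.2) in activated Tconv and 0 to 246 CPM (median 22.8) in Tregs, 10 of 14 of which detected it. Il16 was 175 to 516 CPM (median 297) in hypothalamic activated Tconv and 0 to 794 CPM (median 300) in hypothalamic Tregs. In the rest of the brain Il16 was 68.0 to 410 CPM (median 252) in activated Tconv and 229 to 612 CPM (median 401) in Tregs.

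Il10, the regulatory cytokine gene, was, beside Il16, the other member with a higher median in Tregs of the rest of the brain than in activated Tconv. It was detected in 10 of 14 Treg libraries there (median 35.6, highest 201 CPM) and in 11 of 13 activated Tconv libraries (median 5.42, highest 21.8 CPM). In the hypothalamus 1 of 16 Treg libraries held Il10, at 29.0 CPM, and 5 of 16 activated Tconv libraries did, at up to 41.8 CPM. Both cell types had a median of 0 there.

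**Figure D2:**
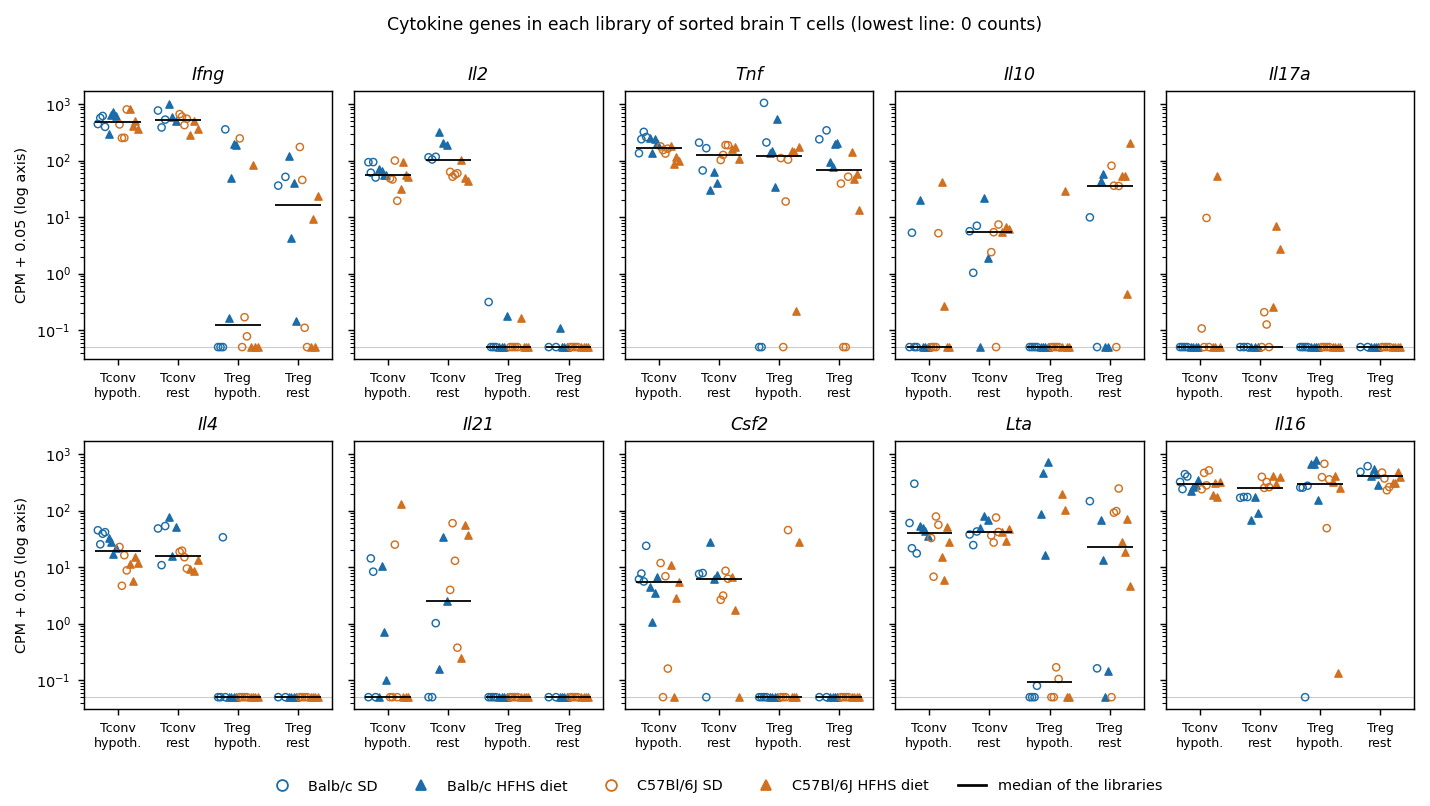
CPM plus 0.05 of each cytokine gene on a log axis in every library of the main experiment, by cell type and tissue, with strain and diet marked, the median as a bar and 0 counts on the lowest line. Il2 is above 19 CPM in all activated Tconv libraries and at or below 0.263 CPM in all Treg libraries, whereas Tnf and Il16 overlap between the cell types.

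The comparison of Tregs with activated Tconv asked which cell type held each cytokine transcript. It was fitted over all genes with edgeR's quasi-likelihood test, and adjusted p-values are Benjamini-Hochberg values over all genes tested. In the hypothalamus 9 of the 10 members could be tested and 4 were lower in Tregs: Il2 (log2 fold change -10.76 ± 1.26 SE, adjusted p = 2.45e-07), Il4 (-9.44 ± 1.78, adjusted p = 0.000299), Il21 (-10.07 ± 2.15, adjusted p = 0.00206) and Il10 (-6.64 ± 2.16, adjusted p = 0.0320). Over all 11283 genes tested, 13.9% passed, 13.3% lower and 0.549% higher in Tregs. The median over all genes was -0.96 and that over the 9 members -3.84. Il2, Il4, Il21 and Il10 were each detected in at most 1 of 16 hypothalamic Treg libraries. These 4 therefore passed the filter on low counts through activated Tconv. The calls of these 4, the count of members that passed and the median over the members were not read as results. All p-values measure the spread between pools of mice. The fitted size for a gene near 0 in a group depends on the prior count, and the counts above give the limits.

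The 5 other members did not pass the test in the hypothalamus. Ifng had a log2 fold change of -3.03 ± 1.14 (adjusted p = 0.0722), Tnf of -0.25 ± 0.79 (adjusted p = 0.931) and Il16 of 0.00 ± 0.59 (adjusted p = 1). Csf2 and Lta had negative fitted values, -3.84 ± 3.01 (adjusted p = 0.542) and -3.68 ± 3.46 (adjusted p = 0.641), although their summed counts were higher in Tregs, 2104 against 1747 and 42369 against 14545. A few Treg libraries with high values set those sums. Without the 3 doubted libraries Il2, Il4 and Il21 passed (adjusted p = 8.46e-07, 0.000852 and 0.00421) and Il10 no longer did (adjusted p = 0.0801). In Balb/c alone Il4 was lost (-6.44 ± 3.03, adjusted p = 0.263). Il10 was also lost without any of 8 single libraries (adjusted p 0.0504 to 0.185), the activated Tconv of C57Bl/6J SD pool 11_15, Balb/c HFHS diet pool 16_20 and Balb/c SD pool 32_36, and the Tregs of Balb/c SD pools 32_36, 42_46 and 06_10 and Balb/c HFHS diet pools 16_20 and 11_14. Csf2 passed without either of the 2 Treg libraries that held it (adjusted p = 0.00727 without pool 72_76 and 0.00922 without pool 62_66), and Ifng passed without the Tregs of C57Bl/6J SD pool 67_71 or Balb/c SD pool 06_10 (adjusted p 0.0225 to 0.0300).

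In the rest of the brain all 10 members were tested and 7 passed, against 15.7% of 13956 genes. The 6 that were lower in Tregs were Il2 (log2 fold change -13.57 ± 0.50, adjusted p = 4.45e-18), Il4 (-11.88 ± 0.97, adjusted p = 5.51e-07), Il21 (-11.23 ± 1.75, adjusted p = 0.000470), Csf2 (-9.91 ± 1.49, adjusted p = 0.000369), Ifng (-4.30 ± 0.88, adjusted p = 0.00134) and Il17a (-4.21 ± 1.03, adjusted p = 0.0153). Il2, Il4, Il21, Csf2 and Il17a were detected in no Treg library of the rest of the brain. They therefore passed the filter on low counts through activated Tconv alone. Neither their calls nor the count of members that passed was read as a result. Genes lower in Tregs made up 12% of all genes tested and genes higher 3.7%. Il16 was higher in Tregs, by 0.72 ± 0.21 (adjusted p = 0.0152). Il10 (2.41 ± 1.25, adjusted p = 0.227), Tnf (-0.63 ± 0.72, adjusted p = 0.658) and Lta (-0.03 ± 0.88, adjusted p = 0.989) did not pass. Fitted by strain, Il16 was 1.53 ± 0.23 in Balb/c (adjusted p = 0.000231) and 0.08 ± 0.19 in C57Bl/6J (adjusted p = 0.982), and Tnf was 1.11 ± 0.34 (adjusted p = 0.0331) and -2.04 ± 1.07 (adjusted p = 0.508). The difference between the strains was not tested. With the pool label as a replicate block, the calls of Il16 and Il17a were lost. Ifng was lost in C57Bl/6J alone (-4.38 ± 1.40, adjusted p = 0.106). Il17a held 186 of its 191 counts in the 3 C57Bl/6J HFHS diet libraries of activated Tconv and was detected in none of the other 10. It did not pass with DESeq2 (adjusted p = 0.674), and without pool 33_37 or pool 77_80 of those 3 its counts no longer met the filter.

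Markers of other lymphocytes moved with this comparison. Cd8a and Cd8b1 summed to a median of 218 CPM in hypothalamic activated Tconv and 276 CPM in those of the rest of the brain, against 0.0688 and 21.5 CPM in Tregs. The sum of 3 natural killer cell markers had medians of 18.9 and 43.8 CPM in activated Tconv and 0 in both Treg populations. Their part in the results was not tested. In these bulk libraries fewer cells that make a transcript and less transcript per cell cannot be told apart.

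The interaction of cell type and tissue, the difference between the fitted effects of cell type, passed for 3 members, beside 1399 of 14764 genes. The difference, hypothalamus minus rest of the brain, was 9.53 ± 2.12 on the log2 scale for Csf2 (adjusted p = 0.00156), 4.55 ± 1.44 for Il4 (adjusted p = 0.0319) and 2.61 ± 0.88 for Il2 (adjusted p = 0.0452). Without the 3 doubted libraries the values were 10.07, 5.35 and 2.84 (adjusted p = 0.00106, 0.0228 and 0.0257). These differences rest on few Treg libraries or reads: 2 hypothalamic libraries hold all Csf2 counts, 1 holds all Il4 counts, and Il2 had 10 counts in hypothalamic and 1 in rest-of-brain Tregs. Csf2 and Il4 had 0 counts in Tregs of the rest of the brain, so the fitted sizes depend on the prior count. No difference between the tissues was read from these values.

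Genes related to the members moved in both directions between the cell types. Of 14 other cytokine and ligand genes tested in the hypothalamus, 7 were lower in Tregs and 1 higher, and the largest differences were Fasl (-12.43), Tnfsf14 (-9.59) and Lif (-8.71 on the log2 scale). Outside the hypothalamus 4 of 15 were lower and 2 higher, among them Tnfsf14 (-8.81), the epidermal growth factor family member Areg (4.86) and the death ligand Fasl (-4.12). Of the receptor genes, 5 of 17 were higher in Tregs of the rest of the brain and 1 lower, including the interleukin 2 receptor gene Il2ra (3.95), Il4ra (2.43) and Il17rc (-4.38), whereas in the hypothalamus 1 of 14 passed, Csf2ra (-6.01). Of 20 transcription factor genes, 4 were lower and 1 higher in hypothalamic Tregs, among them Tbx21 (-9.70) and Eomes (-9.07). Outside the hypothalamus 3 were lower and 4 higher, led by Eomes (-9.63), Foxp3 (5.91) and Stat3 (0.97). Il2ra and Foxp3 follow from the sort. Over all genes tested, 13.3% were lower and 0.549% higher in hypothalamic Tregs, and 12% and 3.7% in those of the rest of the brain. Fasl was detected in 1 of 16 hypothalamic Treg libraries, and Eomes in 1 of 16 and 1 of 14. Such genes passed the filter on low counts through activated Tconv. Neither their calls nor the counts in these lists were read as a result. Of 6 genes whose products degrade cytokine mRNA, none passed in the hypothalamus, while Zfp36l1 (1.44) and Zfp36 (1.18) were higher and Zfp36l2 (-0.69) lower in Tregs of the rest of the brain.

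The strains differed in activated Tconv of the rest of the brain, where Il2 and Il4 were higher and Il16 lower in Balb/c than in C57Bl/6J mice. For Il2, the Balb/c libraries held 114, 104 and 116 CPM on SD and 322, 201 and 188 CPM on the HFHS diet. The C57Bl/6J libraries held 62.9, 51.6, 56.2 and 59.5 CPM on SD and 102, 49.5 and 42.8 CPM on the HFHS diet. Every Balb/c library lay above every C57Bl/6J library, the closest at 104 and 102 CPM. The log2 fold change was 1.65 ± 0.27 (adjusted p = 0.000217).

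For Il4, the Balb/c libraries held 48.3, 10.8 and 53.3 CPM on SD and 76.3, 15.4 and 51.3 CPM on the HFHS diet, and the C57Bl/6J libraries 8.63 to 19.5 CPM. Of the 6 Balb/c libraries, 4 lay above all C57Bl/6J libraries and 2 within their range. The log2 fold change was 1.98 ± 0.46 (adjusted p = 0.00393), and on SD alone it was 1.35 ± 0.55 and did not pass (adjusted p = 0.18). Il16 was 169, 174 and 174 CPM on SD and 68.0, 173 and 90.7 CPM on the HFHS diet in Balb/c, and 252 to 410 CPM in C57Bl/6J. The strains did not overlap for Il16, with a log2 fold change of -0.99 ± 0.20 (adjusted p = 0.00119).

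These 3 were the members called of 9 tested with edgeR, while 23.5% of all 12287 genes passed for strain. Ifng had 0.69 ± 0.25 (adjusted p = 0.0560), Tnf -0.56 ± 0.30 (adjusted p = 0.196), Lta 0.42 ± 0.33 (adjusted p = 0.399), Csf2 1.37 ± 1.21 (adjusted p = 0.461), Il21 -3.33 ± 1.80 (adjusted p = 0.201) and Il10 0.55 ± 1.14 (adjusted p = 0.780). Ifng passed with DESeq2 (adjusted p = 0.0122), with DESeq2 size factors in edgeR (adjusted p = 0.0455) and without the filter on low counts (adjusted p = 0.00216). With the HFHS diet alone, Ifng (1.37 ± 0.29, adjusted p = 0.00597), Tnf (-1.26 ± 0.34, adjusted p = 0.0202) and Lta (1.22 ± 0.35, adjusted p = 0.0272) passed too. Ifng also passed without any of 4 single SD libraries (adjusted p 0.0186 to 0.0474): C57Bl/6J pools 67_71 and 11_15 and Balb/c pools 32_36 and 42_46. Tnf passed without Balb/c SD pool 37_41 (adjusted p = 0.0416) and Il21 without Balb/c HFHS diet pool 15_21 (adjusted p = 0.0263). On SD alone Ifng, Tnf and Lta had 0.11, 0.06 and -0.27 and did not pass. The interaction of strain and diet passed for no member, with adjusted p = 0.144 for Ifng, 0.164 for Il2, 0.214 for Lta and 0.228 for Tnf, beside 75 of 12287 genes.

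**Figure D3:**
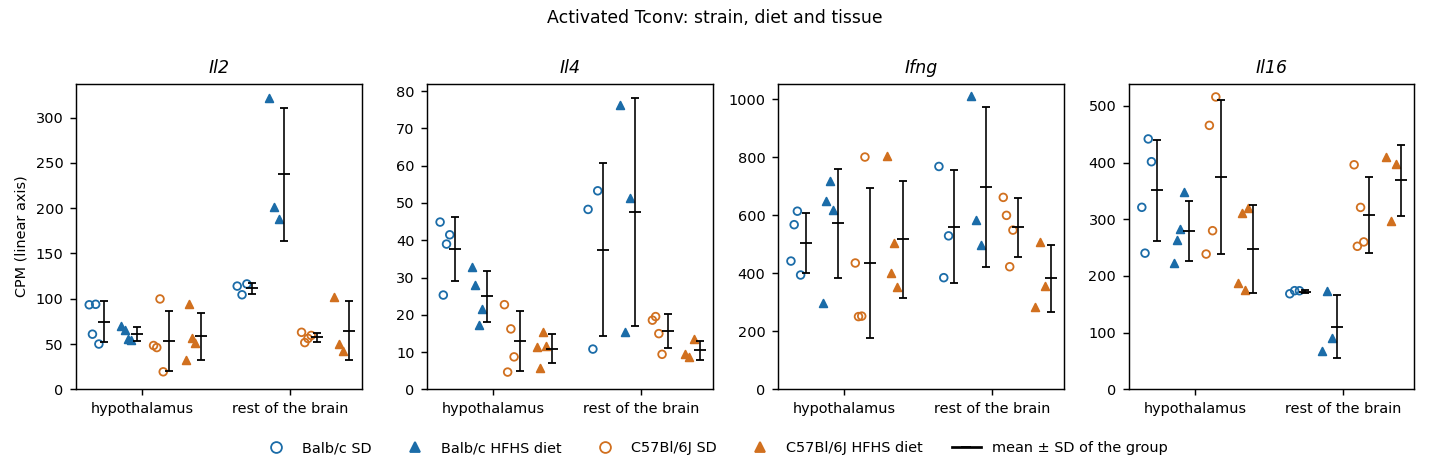
CPM of Il2, Il4, Ifng and Il16 in activated Tconv by strain, diet and tissue, 1 point per library, with the mean and SD of each group. In the rest of the brain the Balb/c libraries lie at 104 to 322 CPM for Il2 and 68.0 to 174 CPM for Il16, against 42.8 to 102 and 252 to 410 CPM in C57Bl/6J.

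In the same 13 libraries the CD8 marker sum had a median of 348 CPM (276 to 479) in Balb/c and 39.8 CPM (1.94 to 736) in C57Bl/6J, and endothelial markers 196 and 95.7 CPM. The number of gene features detected had medians of 13264.5 and 11518. Their part in the strain difference was not tested. The T-cell marker sum had medians of 7419 and 7417 CPM.

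Receptor genes for these cytokines were lower in Balb/c in the same comparison, in 9 of 15 tested and higher in none, with Il21r (-2.71), Il10ra (-2.43) and Il4ra (-2.29 on the log2 scale) leading. Of 20 transcription factor genes 5 were lower, led by Stat6 (-1.67), Stat3 (-1.59) and Tbx21 (-1.48), and 1 was higher. Of 14 other cytokine genes 2 were lower and 1 higher, namely Tgfb1 (-1.32), Fasl (-0.77) and lymphotoxin beta, Ltb (0.86). Of the mRNA decay genes 1 of 6 was lower, Zc3h12a (-1.35). The median log2 fold change was -1.02 over the receptors, -0.42 over the transcription factors, 0.55 over the members and -0.03 over all genes.

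In hypothalamic activated Tconv no member of 9 tested passed for strain with edgeR, and 2.1% of 10875 genes did. At an unadjusted p under 0.05 there were 2, Tnf (0.68 ± 0.19, adjusted p = 0.0878) and Il4 (1.34 ± 0.42, adjusted p = 0.137), beside 9.89% of all genes. Tnf was 135 to 321 CPM in Balb/c and 86.1 to 181 CPM in C57Bl/6J. Il4 was 17.3 to 44.9 and 4.63 to 22.7 CPM. Both ranges overlapped, and both genes passed with DESeq2 (adjusted p = 0.0157 and 0.00811). Tnf also passed without C57Bl/6J HFHS diet pool 06_10 or Balb/c SD pool 37_41 (adjusted p 0.0249 to 0.0388). Of the related lists, Ltb (0.78) was higher and Fasl (-0.57), Il21r (-1.07) and Ifngr1 (-1.03) were lower in Balb/c.

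In Tregs no member passed for strain. Of 4 members tested in hypothalamic Tregs and 5 in rest-of-brain Tregs, none had an unadjusted p under 0.05, beside 3.78% and 8.92% of all genes. After adjustment 0.0389% and 0.299% of all genes passed. DESeq2 also called none. Tnf in Tregs of the rest of the brain was 76.7 to 342 CPM in Balb/c and 0 to 141 CPM in C57Bl/6J (log2 fold change 2.19 ± 1.16, adjusted p = 0.727).

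The diet comparison is the one the study was built on, and no member passed it in any of the 4 populations. The share of all genes that passed with edgeR was 0% in each of the 4 populations. At an unadjusted p under 0.05, 1 of 9 members stood out in hypothalamic activated Tconv, 2 of 9 in those of the rest of the brain, 1 of 4 in hypothalamic Tregs and 0 of 5 in Tregs of the rest of the brain. Over all genes the shares at that level were 3.73% (406 of 10875), 4.81% (591 of 12287), 2.76% (213 of 7715) and 7.28% (853 of 11711). DESeq2 called 16, 12, 180 and 327 genes, with Lta in hypothalamic Tregs as the only member.

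In activated Tconv the diet effects of the abundant members did not survive adjustment. Ifng had a log2 fold change of 0.26 ± 0.24 in the hypothalamus, and -0.06 ± 0.25 for the remaining brain. Il2 had -0.06 ± 0.30 and 0.70 ± 0.26, the latter with an adjusted p of 0.924. Tnf had -0.26 ± 0.19 and -0.74 ± 0.30 (adjusted p = 0.945), and Il16 -0.43 ± 0.19 (adjusted p = 1) and -0.09 ± 0.19. Il4 had -0.40 ± 0.41 and -0.04 ± 0.45, and Lta -0.93 ± 0.57 and 0.42 ± 0.33. The rarer Il10 (2.56 ± 2.20 and 0.79 ± 1.14), Il21 (0.75 ± 2.30 and 2.80 ± 1.76) and Csf2 (-0.72 ± 1.21 and 0.32 ± 1.21) had wide errors.

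Lta in hypothalamic Tregs had the lowest unadjusted p of any member in the 4 diet comparisons. On the HFHS diet the Balb/c libraries held 85.7, 460, 16.5 and 726 CPM and the C57Bl/6J libraries 196, 102, 0 and 0 CPM. On SD the 8 libraries held 0 to 0.119 CPM, with 4 counts in all. So 6 of 8 libraries on the HFHS diet had Lta and 0 of 8 on SD. The log2 fold change was 12.09 ± 2.78 with an unadjusted p of 0.000174, and it did not pass adjustment over all genes (adjusted p = 0.280). Lta passed the filter on low counts through the HFHS libraries alone, and the fitted size depends on the prior count. DESeq2 (adjusted p = 3.28e-09) and edgeR without the filter on low counts (adjusted p = 0.00838) called it. Without the 3 doubted libraries, all on SD, the adjusted p was 0.339. In Tregs of the rest of the brain Lta had medians of 15.8 CPM on the HFHS diet and 94.98 CPM on SD (log2 fold change -1.87 ± 1.54, adjusted p = 1). The HFHS libraries of hypothalamic Tregs detected a median of 5302.5 features and those on SD 4331, and microglia markers summed to medians of 66.4 and 419 CPM. Their part in the Lta values was not tested.

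**Figure D4:**
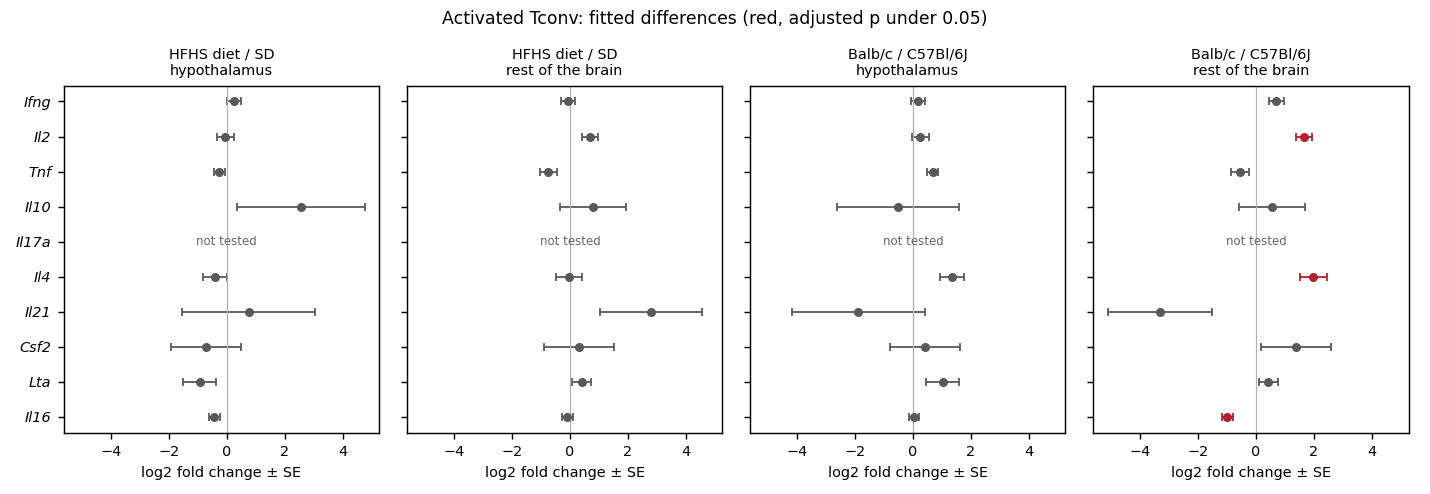
Log2 fold changes with standard errors of the cytokine genes in activated Tconv for diet (HFHS over SD) and strain (Balb/c over C57Bl/6J), in both tissues, with adjusted p under 0.05 in red. Il2, Il4 and Il16 in the rest of the brain are the strain effects that passed, at 1.65, 1.98 and -0.99, and no diet effect passed.

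Between the tissues, Il2 in activated Tconv was lower in the hypothalamus than in the rest of the brain, by a log2 fold change of -0.78 ± 0.25 (adjusted p = 0.0297). It was the only member called of 10, beside 17.4% of 12833 genes. In Balb/c mice Il2 was 49.98 to 93.9 CPM in the hypothalamus and 104 to 322 CPM in the rest of the brain, without overlap. In C57Bl/6J it was 19.3 to 99.7 and 42.8 to 102 CPM. Fitted alone, Balb/c gave -1.59 ± 0.26 (adjusted p = 0.000211) and C57Bl/6J -0.11 ± 0.32 (adjusted p = 1). The difference between the strains in this effect was not tested. Tnf (0.51 ± 0.23, adjusted p = 0.125) and Il16 (0.40 ± 0.18, adjusted p = 0.125) did not pass with both strains and did in Balb/c alone, at 1.17 ± 0.31 (adjusted p = 0.00830) and 0.90 ± 0.19 (adjusted p = 0.00149). Leaving out any of the 4 hypothalamic Balb/c HFHS libraries also ended the Il2 call (adjusted p 0.0579 to 0.0606). That call was lost as well with the pool label as a replicate block.

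Of the related lists in activated Tconv, Il5 (-5.46), Ltb (-0.69), the transcription factor gene Maf (-1.13) and Zfp36l1 (-0.75) were lower in the hypothalamus. Tgfb1 (0.69), Il4ra (1.21), Il21r (1.12), Il2rb (0.87), Stat6 (0.92) and Stat3 (0.79) were higher.

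In Tregs, Il10 was the member called between the tissues, at -9.60 ± 2.22 on the log2 scale (adjusted p = 0.0131), 1 called of 6 tested beside 5.6% of 12602 genes. Since 1 of 16 hypothalamic Treg libraries held it, Il10 passed the filter on low counts through the rest of the brain. The call was therefore not read as a result. The sums were 434 counts in the hypothalamus, all in 1 library, and 10656 in the rest of the brain, a 27.4-fold lower CPM with a counting interval of 24.9 to 30.2. The median over all genes was -0.88, and 695 of the 706 genes called were lower in the hypothalamus. Csf2 had 6.70 ± 1.99 and just missed the threshold (adjusted p = 0.0520). The Il10 call held without the 3 doubted libraries (adjusted p = 0.0214) and was lost in C57Bl/6J alone (adjusted p = 0.943) and without the rest-of-brain Balb/c SD pool 37_41 (adjusted p = 0.0591). Lif (-9.34) and Fasl (-8.29) were the other cytokine genes lower in hypothalamic Tregs. Fasl was detected in 1 of 16 hypothalamic Treg libraries and in 7 of 14 of the rest of the brain. Neither call was read as a result.

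The pilot libraries held 99925 to 5334511 counts on genes, and each group was 1 library, so no test was made. Levels were scaled by size factors, the median ratio of a library's counts to the mean library, and folds above 2 or below 0.5 with more than 20 normalised reads were taken as past 2-fold. Naive T cells of mice on the HFHS diet had more Tnf than on SD, 283 against 40 counts or 12.1-fold (95% counting interval 8.63 to 17.2). They held 64 counts of Il2 and 47 of Il4 where SD had 0, at least 36.3-fold and 26.7-fold higher. Il16 was 2.09-fold higher (1.95 to 2.24), or 1.87-fold with CPM, which is not past 2-fold. Ifng had 49 and 48 counts, a ratio of 1.74 (1.14 to 2.65). These 4 members past 2-fold stood beside 61.9% of 6686 symbols, a background against which the count was not read as a result. The median log2 ratio over these symbols was -0.244. Il10, Il17a, Il21 and Csf2 had 0 counts in both libraries, and Lta had 18 counts (HFHS diet) and 32 (SD), a ratio of 0.958 (0.506 to 1.76). Markers moved with this pair of libraries. T-cell markers summed to 13691 CPM on the HFHS diet and 4411 CPM on SD, CD8 T-cell markers to 52.0 and 5.73 CPM, and oligodendrocyte markers to 67.6 and 274 CPM. Their part in the ratios was not tested.

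In pilot Tregs Lta was counted 84 times after the HFHS diet and never after SD, at least 23.3-fold higher. Il16 was 2.38-fold higher (2.11 to 2.70), or 1.74-fold with CPM, beside 80.5% of 5445 symbols past 2-fold. The median log2 ratio over these symbols was 0.776, also higher on the HFHS diet, and the ratios of members were not corrected for this shift. Il2 had 7 counts in the SD library and 0 in the other. The other 7 members had 0 counts in both. Treg markers summed to 2748 CPM on the HFHS diet and 4404 CPM on SD, and astrocyte and B-cell markers were at 0 on the HFHS diet and 727 and 222 CPM on SD, and their part was not tested.

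In CD4+ CD25- T cells ob/ob mice had 201 counts of Tnf, 102 of Il4 and 108 of Lta where WT had 0, at least 8.59-fold, 4.36-fold and 4.62-fold higher. Ifng had 70 and 35 counts but a normalised ratio of 0.257 (0.169 to 0.397), since the WT library held 220336 counts and the ob/ob library 1727379. With TMM factors that ratio was 0.4658. Il16 had 793 and 90 counts, a ratio of 1.13 (0.908 to 1.42) that was 2.05 with TMM factors. ob/ob also had 16 counts of Csf2 and 4 of Il10 where WT had 0, and WT had 4 counts of Il2 where ob/ob had 0. There, 85.7% of 6440 symbols were past 2-fold. The median log2 ratio over these symbols was 1.31, higher in ob/ob, and the ratios of members were not corrected for this shift. Treg markers summed to 1434 CPM in the WT CD25- library and to 362 CPM in the ob/ob library. Astrocyte markers summed to 540 CPM in WT and 19.1 CPM in ob/ob, and natural killer cell markers to 0 and 134 CPM. Their part in these values was not tested. In CD4+ CD25hi cells Il16 was 2.07-fold higher in ob/ob (1.33 to 3.10), on 27 counts against 204, beside 77.8% of 5978 symbols. The median log2 ratio over these symbols was -1.27, lower in ob/ob. The Il16 ratio moved with the scaling, to 7.07 with CPM (270 against 38.2 CPM) and to 1.90 with TMM factors, which is not past 2-fold. Tnf had 81 counts in WT and 0 in ob/ob, and the other 8 members had 0 in both. The WT CD25hi library had T-cell markers summing to 99.7 CPM and microglia markers to 32375 CPM, and its Treg markers summed to 2.44 CPM, so its markers went against its label.

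**Figure D5:**
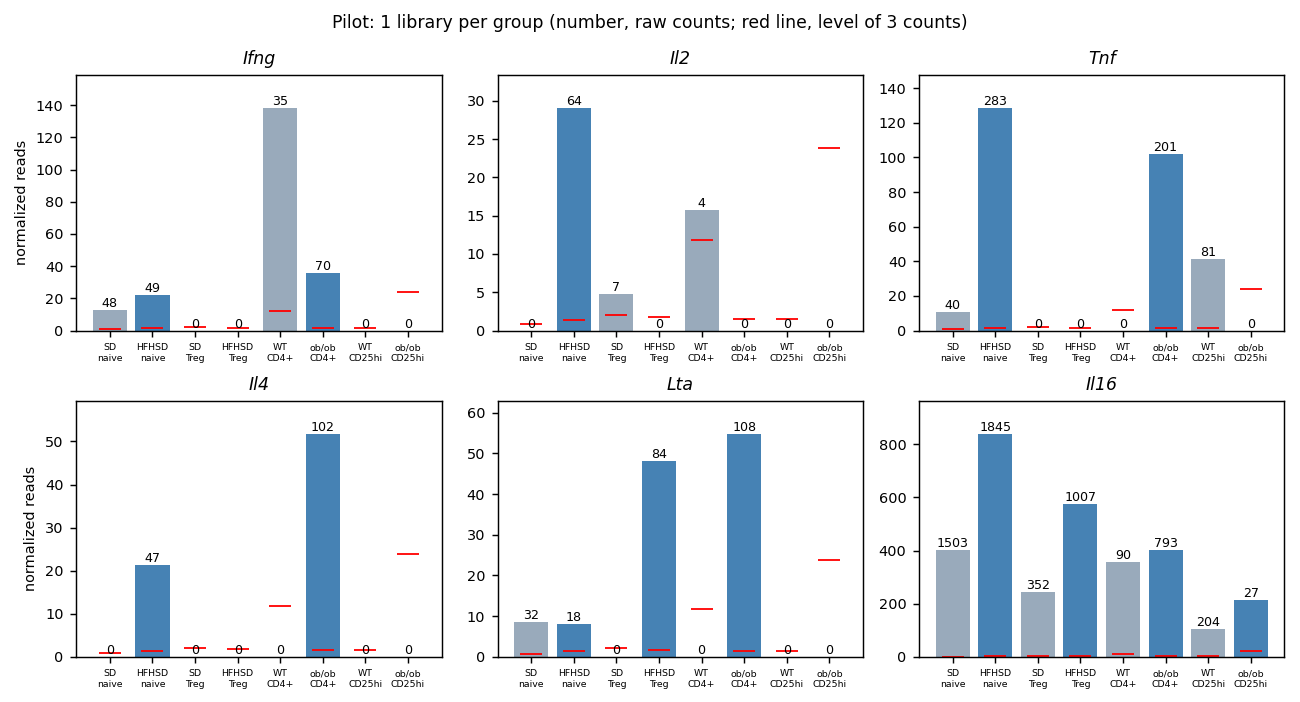
Normalised reads of Ifng, Il2, Tnf, Il4, Lta and Il16 in the 8 pilot libraries, with the raw count above each bar and a red line at the level of 3 counts. Tnf, Il2 and Il4 are higher in naive T cells on the HFHS diet than on SD, and Lta has 84 counts in Tregs of the HFHS diet and 0 in those of SD.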

How the data were processed

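RNA was sequenced from CD4+ T cells sorted from pooled hypothalami and brains. For the main experiment the authors deposited Salmon estimated counts and TPM per RefSeq transcript name, made with the nf-core/rnaseq pipeline on mm10 from SMARTer libraries of paired reads. For the pilot the authors deposited raw HTSeq counts per gene symbol after BWA-mem alignment to mm10. Versions of Salmon, BWA and HTSeq were not given in the submitters' processing notes.

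Estimated counts were summed over the names of each gene and rounded, and CPM was computed from them and the library total on genes. Of 35034 names, 34652 (98.9%) matched a gene in the RefSeq table of GRCm38.p6, and loci and promoters come from that assembly. Promoters were found for 9 of the 10 members. TPM was summed only to compare levels between genes. Fits used edgeR 4.0.16 (TMM, quasi-likelihood test, Benjamini-Hochberg over all genes tested, called at adjusted p under 0.05) in R 4.3.3 after keeping genes whose count exceeded 10 in a number of libraries no smaller than the smallest group. Diet and strain were fitted together within a cell type and tissue, and cell type or tissue was fitted with the strain and diet group. Each SE with edgeR was calculated back from the test, as the absolute log2 fold change over the square root of the F value. It was not estimated separately. The scripts were tested on simulated counts. Alternatives were DESeq2 1.42.0, its size factors in edgeR, no filter, each strain or diet alone, each library left out, the pool label as a replicate block, and the fit without the 3 doubted libraries, which was chosen after seeing the data. No pair of replicate libraries agreed within counting noise (lowest chi-square per degree of freedom 75.5 over 82 pairs).

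Pilot counts were scaled by size factors from the median ratio over the 8 libraries, and ratios have exact Clopper-Pearson 95% intervals. Of pilot reads listed, 0.391% to 17.1% were counted on genes.

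The members and the related lists (other cytokines and ligands, receptors, transcription factors and mRNA decay genes) were chosen with earlier results of these data known. Every member is followed in each comparison. Of each related list, the up to 3 called genes with the largest fold change are named per comparison. For each member detected in at least 30 libraries, the 3 genes with the highest Pearson correlation of log CPM are named. A few genes that these rules pick are not reported here. No column of the authors' own comparisons was used.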

Additional observations from a re-analysis of the deposited data

Results flagged for a closer look

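Within groups of 4 libraries, 20 of 81 sets of values had a library far from the other 3 by Dixon's test, where chance gives about 1 in 20 for values that spread evenly about a mean. That rate does not apply to sparse genes: in 13 of the 20 the other 3 libraries were all at 0, which flags any value above 0. Most lie in hypothalamic Tregs. Ifng stood out there at 356 CPM (Balb/c SD pool 06_10), 246 CPM (C57Bl/6J SD pool 67_71) and 81.9 CPM (C57Bl/6J HFHS diet pool 33_37), beside other libraries of those groups at or under 0.119 CPM. Il4 was 33.7 CPM in Balb/c SD pool 42_46 and 0 in the other 3, and the same library had the highest Tnf of any library and Il16 at 0. Csf2 was 45.2 CPM in C57Bl/6J SD pool 62_66 and 28.1 CPM in C57Bl/6J HFHS diet pool 72_76. Il10 was 29.0 CPM in C57Bl/6J HFHS diet pool 33_37. The C57Bl/6J HFHS diet pool 06_10 was low for Tnf (0.172 CPM) and Il16 (0.0858 CPM), and the Balb/c HFHS diet pool 11_14 was low for Il16 (154 CPM) and had Il2 at 0.130 CPM.

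In hypothalamic activated Tconv the genes concerned were the rarer cytokines. Il21 reached 133 CPM and Il10 41.8 CPM in the same library, C57Bl/6J HFHS diet pool 06_10. Il21 (25 CPM) and Il17a (9.58 CPM) stood out together in C57Bl/6J SD pool 67_66, and Il17a alone in C57Bl/6J HFHS diet pool 33_37 (52.4 CPM). Il10 also stood out at 19.7 CPM (Balb/c HFHS diet pool 16_20), 5.23 CPM (Balb/c SD pool 32_36) and 5.12 CPM (C57Bl/6J SD pool 11_15).

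The interaction of cell type and tissue passed for Csf2 (9.53 on the log2 scale), Il4 (4.55) and Il2 (2.61), tested over all genes with edgeR. Tregs of the rest of the brain had 0 counts of Csf2 and Il4 and 1 of Il2. No difference between the tissues was therefore read from these values.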

How the results depend on the processing

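Of 928 alternative fits of single members, 862 stayed on the same side of the threshold, 25 lost a call, 40 gained one and 1 passed in the other direction. That was Tnf in Tregs against activated Tconv of the rest of the brain, at 1.11 in Balb/c alone (adjusted p = 0.0331). Some of the 862 changed sign without passing, such as Tnf for strain in rest-of-brain activated Tconv (0.06 on SD alone). Of 304 counts of members called, 274 kept within 1.5 times. The causes were not tested.

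For strain, hypothalamic activated Tconv gave 2 members called with DESeq2 and 0 to 1 with a library left out. Those of the rest of the brain gave 6 without the filter, 6 on the HFHS diet alone and 3 to 5 with a library left out (5 without any of the 3 Balb/c SD libraries). For diet, hypothalamic Tregs gave 1 with DESeq2 and 1 without the filter, Lta in both. For Tregs against activated Tconv, the hypothalamus gave 2 in C57Bl/6J alone and the rest of the brain 4 in C57Bl/6J alone. Between tissues, activated Tconv gave 3 without the filter, 3 in Balb/c alone, 0 in C57Bl/6J alone and 0 to 2 with a library left out. The higher count came without the rest-of-brain C57Bl/6J HFHS diet pool 38_42. Tregs gave 2 with DESeq2, 2 without the filter, 0 in C57Bl/6J alone, 2 without the 3 doubted libraries and 0 to 2 with a library left out. The higher count came without hypothalamic C57Bl/6J SD pool 67_71 or 11_15. In the pilot, Tregs gave 1 with CPM and CD25hi cells 0 with TMM factors. DESeq2 gave no adjusted p for Il10 in hypothalamic Tregs against activated Tconv, and that call was lost in 8 of 32 fits with a library left out.

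Libraries of different cell types or tissues carry the same pool labels, but the labels do not say that they share mice, and the deviations of libraries with the same label correlated at most 0.0797. The pool label as a replicate block is therefore only an alternative, and it could not be used for strain or diet, which differ between pools. With it, Tregs against activated Tconv gave 7 members in the hypothalamus, where Ifng, Csf2 and Lta were added, Il10 stayed and the median over all genes tested was -4.88, and 5 in the rest of the brain, where Il17a (adjusted p = 0.0657) and Il16 (adjusted p = 0.113) were lost. Between tissues it gave 0 in activated Tconv (Il2, adjusted p = 0.0966) and 0 in Tregs (Il10, adjusted p = 0.158).

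Over all genes, DESeq2 called 542 against 228 with edgeR for strain in hypothalamic activated Tconv, 250 against 3 and 303 against 35 in Tregs of the hypothalamus and of the rest of the brain, 2666 against 1563 for hypothalamic Tregs against activated Tconv, and 1842 against 706 for Tregs between tissues. Without the filter, 7391 genes against 2233 were called between tissues in activated Tconv and 5054 against 2190 for cell type in the rest of the brain. The block called 5543 genes for cell type in the hypothalamus, and 115 and 0 between tissues in activated Tconv and Tregs. Fitted alone, C57Bl/6J called 383 and 408 genes for cell type in the hypothalamus and in the remaining brain, and 1 and 0 between tissues in activated Tconv and Tregs. For strain, SD alone called 47 and 802 genes in activated Tconv and 0 and 2 in Tregs, and the HFHS diet alone 67 in hypothalamic activated Tconv. Between tissues, Tregs gave 1259 without the 3 doubted libraries. For diet, no filter gave 61 genes in hypothalamic Tregs, 9 in rest-of-brain activated Tconv and 5 in rest-of-brain Tregs.

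In comparisons with hypothalamic Tregs, 4 to 9 members passed the filter on low counts.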

Other observations

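Across the 59 libraries of the main experiment, 9001 or 9002 other genes were ranked by the Pearson correlation of their log CPM with that of each member detected in at least 30 libraries. The 3 most like Il2 were Gzmk (0.974), Pde3b (0.951) and Klrb1f (0.940), and the same 3 led for Il4 (0.895 for Gzmk, 0.886 for Klrb1f and 0.860 for Pde3b). Ifng was most like Samd3 (0.818), Gzmk (0.798) and Anxa1 (0.782). Among the genes closest to Tnf were Nsun2 (0.745) and Atg3 (0.736). Lta was closest to Cep20 (0.651), Eef1akmt1 (0.634) and Csk (0.618), and Il16 to Tagln2 (0.877), Cish (0.860) and Ran (0.836). The libraries span 2 cell types and differ in the number of features detected, so these values describe the libraries and carry no test.

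Nearly all Tnf counts were assigned to a single RefSeq name, 99.9% in hypothalamic activated Tconv and 97.8% in those of the rest of the brain. Il21 counts were split between 2 names in hypothalamic activated Tconv, 78.2% and 21.8%, and were 96.3% on the first in the rest of the brain.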
